A study of Homo sapiens with 5 samples.

Results

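Clade B serpins were followed on 5 exon arrays of lung cancer cell lines in which the scaffold protein NEDD9 had been lowered or raised. The genes were taken by symbol: of 10 listed clade B genes, 9 had a feature annotated with that symbol alone, and these 9 stand among 14232 genes measured in the same way. SERPINB6 had no such feature. Each of the 9 had a single feature, and all 9 matched a RefSeq gene by Entrez number. The family was chosen by gene symbol, with its levels on all 5 arrays, the difference of each hairpin and of overexpression from control and the difference between the controls already known, so the values of its members are a description and carry no test.

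The arrays came from A549, an established lung adenocarcinoma line with an LKB1 loss-of-function mutation and, per the submitters, raised NEDD9, and from CRL-5907, a lung cancer line that the submitters describe as LKB1 wild type with low NEDD9. A549 was profiled with NEDD9 knockdown by hairpin 1 and by hairpin 2 (n = 2) and as a control (n = 1). CRL-5907 was profiled with NEDD9 overexpression (n = 1) and as a control (n = 1). For the hairpin 2 sample the description field reads NEDD10 where the other labels read NEDD9, and the sample was taken as a NEDD9 knockdown by its title. The labels do not say what construct the controls carried, how the hairpins were delivered, whether any line was 1 clone, or whether the arrays came from separate cultures. NEDD9 had log2 levels of 8.35 with hairpin 1, 8.52 with hairpin 2 and 8.94 on the A549 control, and of 9.49 with overexpression against 4.66 on the CRL-5907 control. The knockdown was therefore partial, 33.4% with hairpin 1 and 24.8% with hairpin 2. STK11, which encodes LKB1, was at 6.11, 6.13 and 6.23 on the A549 arrays (hairpin 1, hairpin 2 and control), against 6.13 on both arrays of CRL-5907.

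Serpins are proteins that trap proteases: a protease cuts an exposed loop of the serpin, the serpin changes shape and the protease is left covalently bound and distorted. Clade B serpins are the branch that lacks a classical secretion signal and mostly stays inside the cell, where several members are known to protect cells against their own or incoming granule and lysosomal proteases. In the human genome they lie in 2 clusters, which RefSeq places on chromosome 6 (SERPINB1, SERPINB9 and SERPINB6) and on chromosome 18. The chromosome 18 cluster holds 10 genes in the order SERPINB5, SERPINB12, SERPINB13, SERPINB4, SERPINB3, SERPINB11, SERPINB7, SERPINB2, SERPINB10 and SERPINB8. Many of the chromosome 18 genes are known from squamous epithelium and skin, while SERPINB1 and SERPINB9 are best known from leukocytes.

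All values below are log2 expression levels, normalised with RMA by the authors, or differences between such levels. A level under the array's median over named features (5.85 for hairpin 1, 5.83 for hairpin 2, 5.80 for the A549 control, 5.70 for overexpression and 5.69 for the CRL-5907 control) was not shown to exceed background. By that measure 3 of the 9 members, SERPINB1, SERPINB8 and SERPINB9, were above the median on all 5 arrays. SERPINB11 was above it on the 2 hairpin arrays only, so it entered the knockdown counts through the very arrays on which it was high. The remaining 5 members, SERPINB5, SERPINB7, SERPINB10, SERPINB12 and SERPINB13, were below it on every array. Of these SERPINB7 came closest, with 5.20 on the hairpin 1 array. Levels of different genes come from different probes and are not compared with each other.

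**Figure D1:**
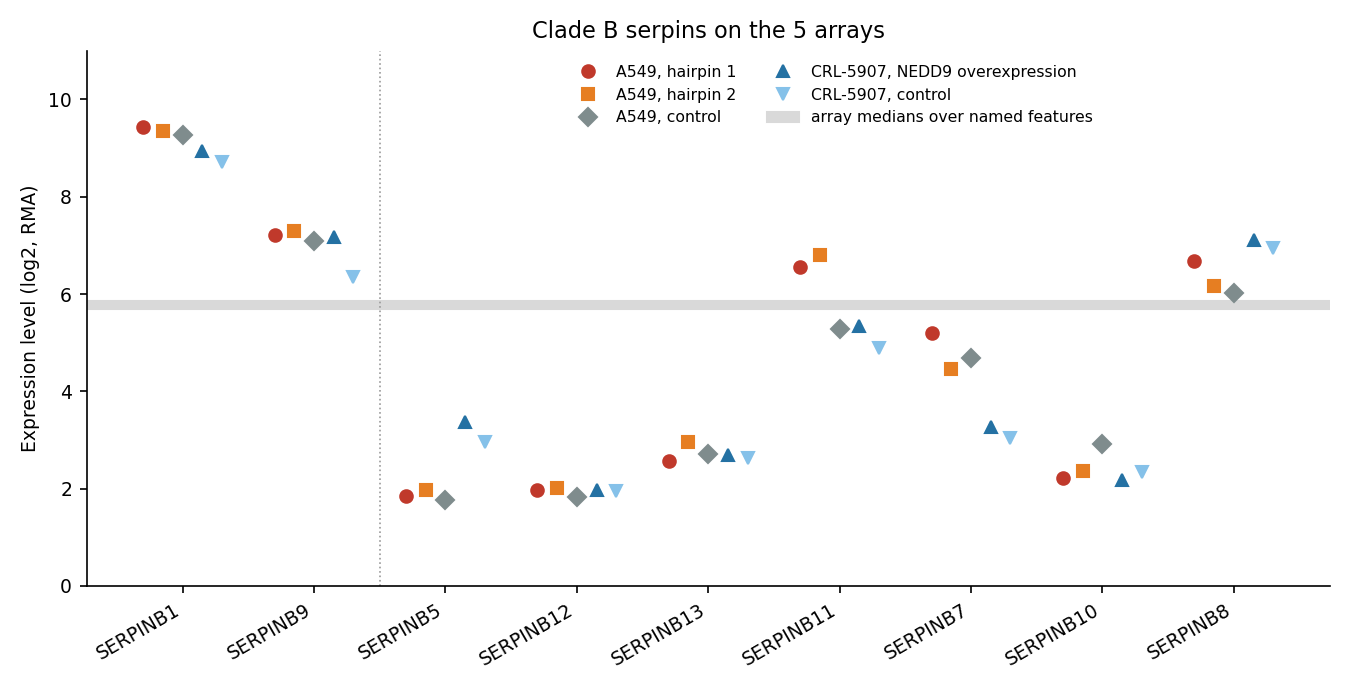
Log2 expression level (vertical axis) of the 9 measured clade B serpins on each of the 5 arrays, 1 point an array, with the chromosome 6 genes left of the dotted line and the chromosome 18 genes right of it in RefSeq order. The grey band spans the array medians, 5.69 to 5.85, and SERPINB11 lies above it on the 2 hairpin arrays only.

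SERPINB11 was the member with the largest difference after NEDD9 knockdown. It belongs to the middle of the chromosome 18 cluster. Its mouse counterpart is known as an inhibitor of trypsin, but no activity of the human protein was measured here. Its level was 6.57 with hairpin 1 and 6.79 with hairpin 2, against 5.29 on the A549 control. Both hairpin arrays were high, and they differed from each other by 0.23 where genes of like level had an SD of 0.18 between the hairpins. The log2 difference from control was 1.28 with hairpin 1 and 1.505 with hairpin 2 (mean 1.39 ± 0.16, SD, n = 2), or 2.42-fold and 2.84-fold. Because the control value lay under its array's median, and both differences subtract that single control array, the size is uncertain on the control side. By the smaller of its 2 hairpin differences SERPINB11 stood at rank 3 from the top of the 7473 genes above the median level.

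In CRL-5907 the level of SERPINB11 was 5.34 with NEDD9 overexpression and 4.90 on the control, both under the median. The difference of 0.44 had the same sign as the knockdown differences in A549. The SD between the hairpins was 0.23 for genes of that level. NEDD9 was raised in CRL-5907 and lowered in A549, and a link of SERPINB11 to NEDD9 was not tested. Between the lines SERPINB11 was at 5.29 on the A549 control, against 4.90 on that of CRL-5907, and the overexpression array of CRL-5907 lay above the A549 control.

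None of the other members was 1.5-fold higher or lower with both hairpins. The 1.5-fold rule thus took 1 of the 4 members above the median level as higher, where it took 0.709% of all 7473 such genes, and 0 of 4 as lower, where it took 0.134%. This contrast was known when the family was picked, and nothing is read from that share. limma, fitted over the 7473 genes with Benjamini-Hochberg adjustment and 1 residual degree of freedom, called 0% of the genes (0 at an adjusted p under 0.05, lowest adjusted p = 0.276), the members included. Without adjustment 1309 genes had a p under 0.05. In the 5 other settings of limma the number called was also 0.

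**Figure D2:**
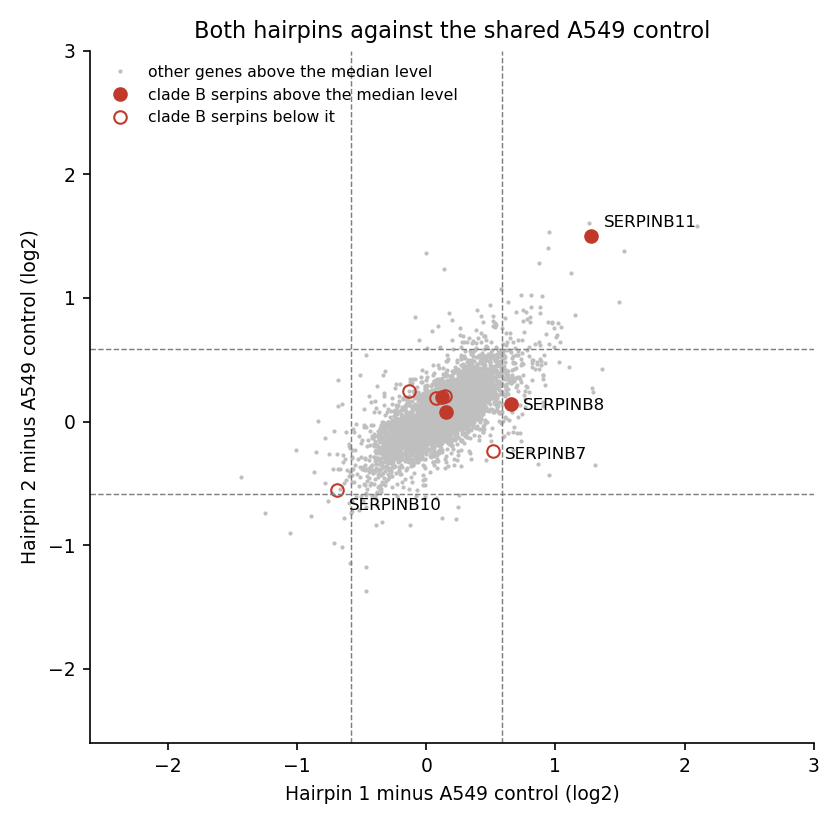
Log2 difference of hairpin 1 (horizontal axis) and of hairpin 2 (vertical axis) from the A549 control array that both share; grey points are the other genes above the median level, filled red points the 4 clade B serpins above it and open red points the 5 below it. Dashed lines mark 1.5-fold, and SERPINB11 lies past them with both hairpins at 1.28 and 1.505.

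SERPINB8, an inhibitor of the proprotein convertase furin, differed with 1 hairpin. Its level was 6.68 with hairpin 1 and 6.17 with hairpin 2, against 6.02 on the A549 control. Hairpin 1 alone stood apart, with a difference of 0.66 against 0.14 for hairpin 2 (mean 0.40 ± 0.36, SD, n = 2). Taken alone, hairpin 1 was 1.5-fold above control for 2 of the 4 members above the median level (2.57% of all such genes) and hairpin 2 for 1 of 4 (1.35%). SERPINB7, also called megsin and known from kidney mesangium and from skin, split the hairpins in the same way. It was at 5.20 with hairpin 1 and 4.46 with hairpin 2, against 4.69 on the A549 control. The control thus lay between the hairpins, and hairpin 2 minus hairpin 1 was -0.75, beyond the SD of 0.23 for genes of that level. Hairpin 2 also gave the lower value of these 2 genes, which lie on either side of SERPINB2 and SERPINB10 in the cluster.

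SERPINB10, a nuclear and cytoplasmic serpin of myeloid cells also named bomapin, was the only member lower with both hairpins. It was at 2.22 with hairpin 1 and 2.36 with hairpin 2, against 2.91 on the A549 control. The differences were -0.69 and -0.55, the second short of 1.5-fold (0.58 on the log2 scale). All 5 of its values were far under the array medians, and its level on the A549 control was the highest of the 5.

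The other members differed little with knockdown. SERPINB1, the inhibitor of neutrophil elastase, proteinase 3 and cathepsin G, was at 9.42 with hairpin 1 and 9.35 with hairpin 2, against 9.27 on the A549 control. SERPINB9, the inhibitor of granzyme B, was at 7.21 and 7.29 with the hairpins, against 7.09 on the control. The median over the genes above the median level was 0.10 for hairpin 1 and 0.04 for hairpin 2, so the SERPINB1 differences of 0.16 and 0.08 lay close to that general offset. SERPINB5 (maspin, a member that does not inhibit proteases), SERPINB12 (which inhibits trypsin-like proteases) and SERPINB13 (which inhibits cathepsins L and K) had differences between -0.14 and 0.25 at levels under 3. By sign alone 6 of the 9 members were higher with both hairpins, where 39.6% of all 14232 genes were, and 1 was lower with both, where 27.7% of all genes were. The median over the 9 members was 0.15 with hairpin 1 and 0.19 with hairpin 2, beside 0.02 and 0.00 over all genes. These member medians are the values of SERPINB12 (hairpin 1) and SERPINB5 (hairpin 2), at levels not shown to exceed background. Both genes are also among the 6 counted as higher by sign.

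With NEDD9 overexpression the member that stood out was SERPINB9. Its level was 7.18 with overexpression, against 6.36 on the CRL-5907 control, a difference of 0.82 or 1.77-fold. The overexpression value fell within the range of the 3 A549 arrays, 7.09 to 7.29, and the CRL-5907 control was below all other arrays. The SD between the hairpins for genes of that level was 0.17, and the same spread was assumed for CRL-5907. SERPINB9 was at rank 84 from the top of 7406 genes above the median level. The 1.5-fold rule took 1 of the 3 members above that level as higher, where it took 3.5% of all such genes, and 0 as lower, where it took 0.851%. With 1 array in each condition no test was made.

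The remaining members were within 1.5-fold of the CRL-5907 control. SERPINB5 was at 3.37 with overexpression and 2.96 on the control, a difference of 0.41 at levels under the median. SERPINB1 was at 8.93 and 8.71, a difference of 0.22, and SERPINB8 at 7.12 and 6.94, a difference of 0.18. SERPINB7 was at 3.26 with overexpression and 3.04 on the control. SERPINB10 was the member with a lower value, 2.18 with overexpression and 2.35 on the control. By sign 8 of 9 members were higher, where 48.1% of all genes were, and 1 was lower, where 42.3% were, but for SERPINB12 the difference was 0.01 and for SERPINB13 it was 0.05. The median over the 9 members was 0.22 and over all genes 0.00. That member median is the value of SERPINB7, which was under the array medians.

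**Figure D3:**
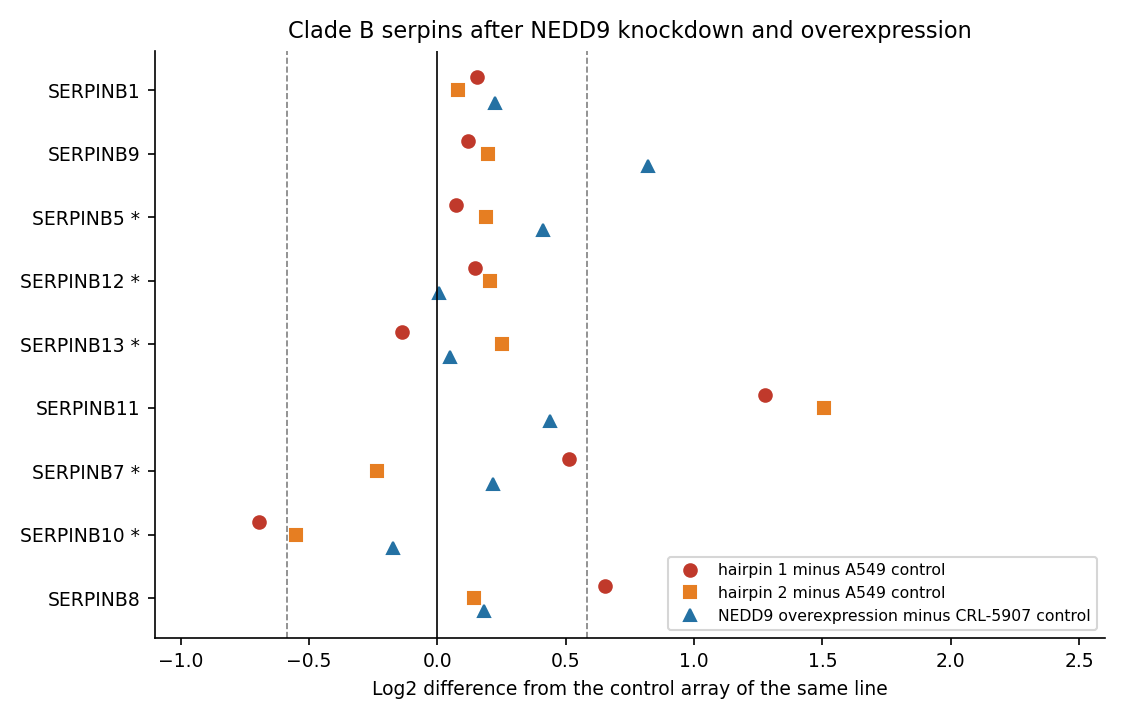
Log2 difference (horizontal axis) of each hairpin array from the A549 control and of the overexpression array from the CRL-5907 control, for the 9 members (rows); dashed lines mark 1.5-fold, and an asterisk marks members under the median on every array. SERPINB11 passes 1.5-fold with both hairpins, SERPINB8 and SERPINB10 with hairpin 1 and SERPINB9 with overexpression.

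The promoter of SERPINB9 is shown because this member had the largest difference with overexpression, and that of SERPINB8 because this member had the largest difference between the lines among members above the median level. Both are RefSeq windows of build GRCh38.p14, from 250 bases before to 50 bases after the annotated start, with matches to TATAAA and TGANTCA in capitals. They lie at chr6:2903260-2903559 on the minus strand and chr18:63969831-63970130 on the plus strand.
SERPINB9: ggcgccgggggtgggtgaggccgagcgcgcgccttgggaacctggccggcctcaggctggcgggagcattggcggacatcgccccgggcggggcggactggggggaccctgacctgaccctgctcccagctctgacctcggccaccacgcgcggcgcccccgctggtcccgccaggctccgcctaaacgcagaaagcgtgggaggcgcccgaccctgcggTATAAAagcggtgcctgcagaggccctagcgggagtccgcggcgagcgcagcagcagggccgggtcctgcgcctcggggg
SERPINB8: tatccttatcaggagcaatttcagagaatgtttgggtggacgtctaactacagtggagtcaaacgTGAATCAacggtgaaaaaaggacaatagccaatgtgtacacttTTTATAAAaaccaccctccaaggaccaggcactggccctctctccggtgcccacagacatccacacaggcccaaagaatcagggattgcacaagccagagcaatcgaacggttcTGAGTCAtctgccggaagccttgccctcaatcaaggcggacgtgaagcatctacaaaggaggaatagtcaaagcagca
The match in SERPINB9 is the letters of a TATA box, with its first base at -30 from the start. SERPINB8 held 2 matches to TGANTCA, the letters of an AP-1 element, with first bases at -185 and -28. It also held TATAAA on both strands, with first bases at -142 and -140, where the 2 matches overlap.

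Windows were found for 8 of the 10 listed members, 14 windows in all, since SERPINB6, SERPINB7 and SERPINB12 have several annotated starts. SERPINB10 and SERPINB11 had none, so no promoter could be shown for the member with the largest difference after knockdown. On either strand TGANTCA was in 6 of the 14 windows (42.9%), from 5 members (SERPINB5, SERPINB7, SERPINB8, SERPINB12 and SERPINB13), all on chromosome 18, and in 7.71% of all 35116 windows of this length. TATAAA was in 6 of 14 windows (42.9%), against 11.5% of all windows. The members were SERPINB6, SERPINB7, SERPINB8, SERPINB9, SERPINB12 and SERPINB13. Matches were counted anywhere in the window, with first bases from -176 (SERPINB12) to 25 (SERPINB13) and at -1 in SERPINB6. Only SERPINB9 (-30) and SERPINB7 (-33, on the opposite strand) had a match near -30. These are matches of letters, which were not tested as sites and show no use of the sequence in these cells.

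Between the lines the members went both ways. SERPINB7 was at 5.20, 4.46 and 4.69 on the A549 arrays (hairpin 1, hairpin 2 and control), against 3.26 with overexpression and 3.04 on the control of CRL-5907. All 3 A549 values were higher, and the controls differed by 1.65, but all 5 values were under the medians. SERPINB5 went the other way, at 1.85, 1.97 and 1.78 in A549 against 3.37 and 2.96 in CRL-5907, also under the medians. The controls differed by -1.19. SERPINB8, measured above the medians throughout, was at 6.68, 6.17 and 6.02 in A549 against 7.12 and 6.94 in CRL-5907. All 3 A549 values were lower, and the controls differed by -0.91, or 1.88-fold lower in A549. SERPINB1 was at 9.42, 9.35 and 9.27 in A549 against 8.93 and 8.71 in CRL-5907, with a difference of 0.56 between the controls. SERPINB9 was 0.73 higher on the A549 control than on the CRL-5907 control, but the overexpression array reached the A549 values.

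Thus 2 of 9 members were higher on all 3 A549 arrays than on both CRL-5907 arrays, where 30.1% of all genes were, and 2 of 9 were lower, where 20.5% were. At 2-fold between the controls, 0 of 3 members above the median level were higher in A549 (9.88% of all such genes) and 0 were lower (5.0%). Without the level filter SERPINB7 was higher and SERPINB5 lower at that fold, where 6.44% of all genes were higher and 3.53% lower. Line and LKB1 state cannot be told apart with 1 line of each kind. In extracts of whole cultures fewer cells that make a transcript and less of it in each cell cannot be told apart either.

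Clade B genes outside the symbol rule were only partly measured. SERPINB3 and SERPINB4, the squamous cell carcinoma antigens, which inhibit lysosomal cysteine and granule serine proteases, share 2 features that are annotated with both symbols. SERPINB2 had no feature annotated with its symbol alone. One shared feature was at 4.87 with hairpin 1 and 4.48 with hairpin 2, against 5.39 on the A549 control, and at 7.07 with overexpression against 5.56 on the CRL-5907 control. Its differences were -0.52 and -0.91 with the hairpins and 1.51 with overexpression, or 2.84-fold higher, and the overexpression array was the only one above its median. The other shared feature was at 4.87 with hairpin 1 and 3.98 with hairpin 2, against 4.98 on the A549 control, and at 3.56 with overexpression against 3.49 on the CRL-5907 control. The features therefore differed in CRL-5907, where the second was 0.07 above control, and which of the genes either of them reads is not settled by their annotation.

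The pair of genes is close to a repeat of itself even upstream of its starts. Their RefSeq promoter windows (GRCh38.p14, minus strand, chr18:63661844-63662143 for SERPINB3 and chr18:63644207-63644506 for SERPINB4) were identical at 296 of 300 bases (98.7%). They are shown with the 4 differing bases in capitals.
SERPINB3: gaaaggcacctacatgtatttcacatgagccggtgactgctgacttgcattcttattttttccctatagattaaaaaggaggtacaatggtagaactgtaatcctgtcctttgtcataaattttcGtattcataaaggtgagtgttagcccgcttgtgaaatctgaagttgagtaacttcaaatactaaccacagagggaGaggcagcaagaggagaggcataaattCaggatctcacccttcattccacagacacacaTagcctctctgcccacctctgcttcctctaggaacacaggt
SERPINB4: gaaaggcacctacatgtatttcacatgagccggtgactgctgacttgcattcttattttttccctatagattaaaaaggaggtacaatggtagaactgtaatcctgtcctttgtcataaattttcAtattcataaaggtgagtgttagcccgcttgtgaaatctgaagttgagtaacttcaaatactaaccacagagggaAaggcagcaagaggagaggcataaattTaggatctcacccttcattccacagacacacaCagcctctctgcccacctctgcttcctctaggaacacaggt
Counted from the first base of the window, with the base of SERPINB4 before the position and that of SERPINB3 after it, the differences are A126G, A201G, T228C and C260T. Promoter letters say nothing of the probes, whose sequences were not used here.

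The genes beside the members in the clusters were also read. SERPINB11 lies between SERPINB3 and SERPINB7. SERPINB7 was not higher with both hairpins, and neither were the features annotated with both SERPINB3 and SERPINB4. SERPINB3 had no feature of its own, so its level alone was not read. On the outer sides of the chromosome 18 cluster the nearest measured genes were BCL2, KDSR and VPS4B before it and LINC00305, CDH7 and CDH19 after it. Their differences ran from -0.09 (KDSR, hairpin 2) to 0.35 (CDH19, hairpin 1) with knockdown, with none at 1.5-fold. Before the chromosome 6 cluster lay GMDS, an enzyme of GDP-fucose synthesis, which differed from control by 0.63 (hairpin 1), 0.26 (hairpin 2) and 0.62 (overexpression). LINC01600 followed with -0.23, -0.29 and 0.43, and WRNIP1, next to SERPINB1, with -0.02, -0.06 and 0.21. After the cluster lay BPHL with -0.13 and -0.11 with the hairpins and -0.14 with overexpression, TUBB2B, a beta tubulin, with -0.21, -0.22 and -0.53, and PXDC1 with 0.04, 0.00 and -0.08. The neighbours of this cluster thus went both ways, and none was 1.5-fold from control with both hairpins. With overexpression GMDS was past 1.5-fold, as were 3.5% of all genes above the median level on the higher side. SERPINB9P1, a pseudogene beside SERPINB9, was at 5.28 and 5.34 with the hairpins against 5.56 on the A549 control, and at 6.97 with overexpression against 6.44 on the CRL-5907 control. Whether its feature also reads SERPINB9 transcripts was not tested.

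Genes with a pattern like that of the leading members were sought among 8035 genes above the median on at least 1 array, by the distance between the 5 levels after each gene's mean was subtracted. Nearest to SERPINB11 were HEY1, a Notch target repressor (distance 0.45), ID4, an inhibitor of bHLH factors (0.50), and GLDC, an enzyme of glycine breakdown (0.52). HEY1 was at 5.97 and 6.09 with the hairpins against 5.16 on the A549 control, and at 4.76 with overexpression against 4.48 on the CRL-5907 control. Nearest to SERPINB9 were C16orf87 (0.14), GMNN, which encodes the replication inhibitor geminin (0.16), and EZH2, a histone methyltransferase (0.17). EZH2 was at 6.25 and 6.31 with the hairpins against 5.97 on the A549 control, and at 6.03 with overexpression against 5.36 on the CRL-5907 control. Nearest to SERPINB8 were ZNF131 (0.15), ETV1, an ETS transcription factor (0.19), and KEAP1, the adaptor that targets NRF2 for degradation (0.21). KEAP1 was at 7.21 and 6.94 with the hairpins against 6.68 on the A549 control, and at 7.75 with overexpression against 7.47 on the CRL-5907 control. With 5 arrays many genes can share such a pattern, and the distances are a description.

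**Figure D4:**
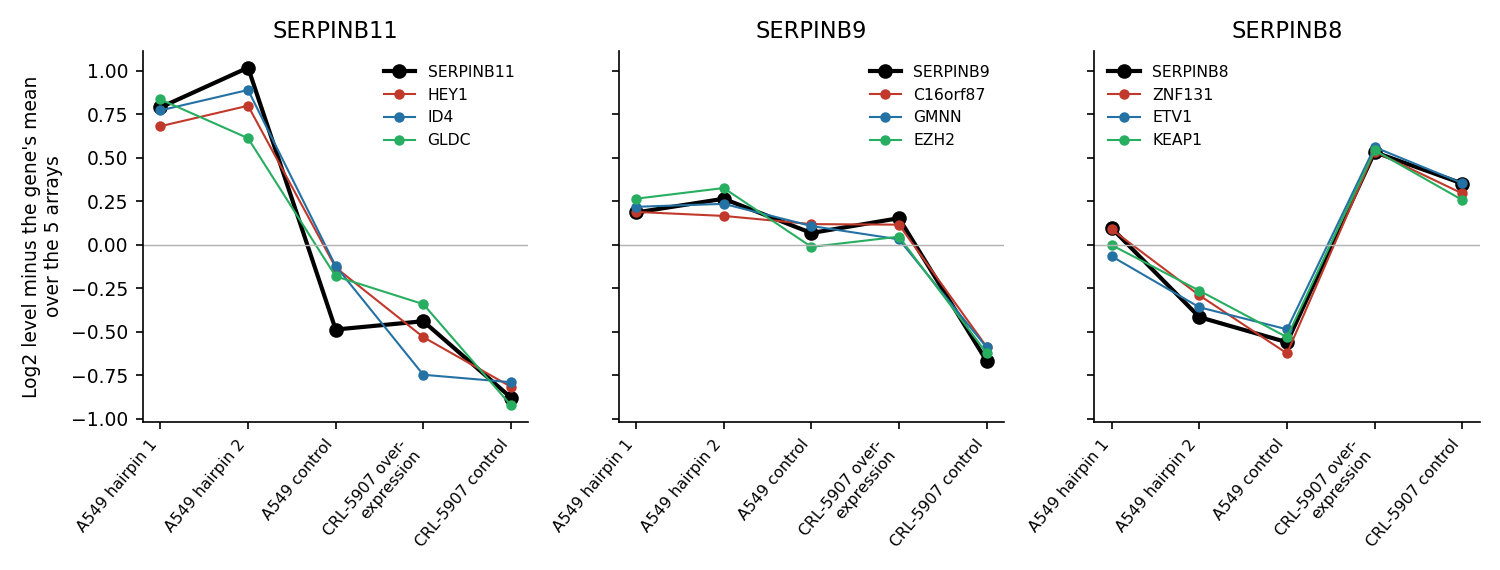
Log2 level minus the gene's own mean over the 5 arrays (vertical axis) on each array (horizontal axis), for SERPINB11, SERPINB9 and SERPINB8 (black) and the 3 genes nearest to each (colours). The SERPINB11 panel is high on the 2 hairpin arrays, and the SERPINB9 panel is lowest on the CRL-5907 control.

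Proteases that clade B serpins act on were counted in the same way. Of 15 measured from a list of 23, none of the 7 above the median level was 1.5-fold higher or lower with both hairpins. Of all such genes 0.709% were higher and 0.134% lower, so a count of 0 says little. With overexpression 1 of 7, PLAU, which encodes urokinase, was higher, at 8.11 against 7.11 on the CRL-5907 control. Of all such genes 3.5% were higher and 0.851% lower. ELANE and PRTN3, the elastase and proteinase that SERPINB1 inhibits, differed from control by -0.28 to 0.01 with the hairpins. CTSB, cathepsin B, was at 9.36 and 9.35 with the hairpins against 9.49 on the A549 control. FURIN, the convertase that SERPINB8 inhibits, was at 7.36 and 7.23 with the hairpins and 7.20 on the A549 control, against 8.38 with overexpression and 8.40 on the control in CRL-5907. Its controls differed by -1.19 (A549 minus CRL-5907), the direction also seen for SERPINB8. F2, thrombin, was at 5.88 on the A549 control against 6.90 on that of CRL-5907, a difference of -1.02. These were the 2 of 7 proteases above the median level that were 2-fold lower in A549, where 5.0% of all such genes were, and 0 of 7 were higher.

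Serpins of other clades were measured for 16 of 21 genes. None of the 4 above the median level in A549 was 1.5-fold higher or lower with both hairpins, and none of 3 with overexpression. Of all such genes 0.709% were higher and 0.134% lower with both hairpins, and 3.5% and 0.851% with overexpression. SERPINI1, neuroserpin, was below that level, at 5.44 and 5.22 with the hairpins against 4.45 on the A549 control, and at 1.68 with overexpression against 2.25 on the CRL-5907 control. SERPINA6, the carrier of glucocorticoids, was at 6.47 with hairpin 1 and 5.89 with hairpin 2, against 5.75 on the A549 control. SERPINE2, an inhibitor of thrombin and urokinase, was higher in A549, at 8.83 on the control against 6.47 on the CRL-5907 control.

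Squamous and keratinocyte genes, among which several clade B members are known to be expressed, were near control with the hairpins. Of 10 measured from a list of 18, none was 1.5-fold higher or lower with both hairpins, with or without the level filter. Without it 113 of all 14232 genes were higher and 43 lower, so a count of 0 says little. By sign 0 of the 10 were higher with both hairpins and 6 lower, where 39.6% and 27.7% of all genes were. Under the median on all arrays were 9 of the 10. KRT14 was above it on all arrays, at 6.71 and 6.34 with the hairpins against 6.72 on the A549 control. In CRL-5907 KRT14 was at 6.14 with overexpression against 6.09 on the control. Summed on the linear scale and taken back to log2, the levels of the 10 genes came to 8.01 and 7.93 with the hairpins, against 8.06 on the A549 control. CSTA, a cysteine protease inhibitor of the cornified envelope, was at 4.35 with overexpression and 5.40 on the CRL-5907 control, against 2.59 to 2.69 in A549. DSC3 went the other way between the lines, at 3.84 on the A549 control against 2.79 on the CRL-5907 control. Without the level filter 1 of the 10 was 2-fold higher in A549 and 1 lower, where 6.44% and 3.53% of all genes were. IVL was at 3.99 with overexpression against 3.47 on the CRL-5907 control. Lung epithelial markers were present, with 6 of 8 above the median on all arrays (KRT8 at 11.04 to 11.76 and CDH1 at 8.29 to 9.09), while the surfactant genes SFTPB and SFTPC were under it. Of 13 leukocyte markers, 11 were under the median on every array, and PTPRC, the leukocyte common antigen, had the same value of 1.72 on all 5. NKG7 was above the median on all 5 arrays, at 5.95 to 6.21. Summed in the same way, the leukocyte markers came to 8.56 and 8.46 with the hairpins, against 8.57 on the A549 control, and 8.66 with overexpression, against 8.66 on the CRL-5907 control. With both hairpins 2 of the 13 were higher and 5 lower by sign, where 39.6% and 27.7% of all genes were. LYZ, lysozyme, which lung epithelium also makes, was under the median, at 5.55 and 5.34 with the hairpins against 3.55 on the A549 control. CD14, an endotoxin co-receptor, was at 6.08 and 5.63 with the hairpins against 6.47 on the A549 control. It was at 6.96 with overexpression and 6.91 on the CRL-5907 control, and was above the median on all arrays except that of hairpin 2. SPI1, a myeloid transcription factor, was under the median, at 5.43 and 5.25 with the hairpins against 5.70 on the A549 control. All 5 endothelial and 5 of 6 fibroblast markers were under the median on every array.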

How the data were processed

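Labelled, rRNA-depleted RNA of each sample was put on its own exon array, per the labels. The deposited values are log2 levels of 22011 features; RMA and Affymetrix Power Tools are the tools that the submitters' processing notes name, without versions. The build is not given in the sources used here. RMA normalises the arrays together and can give arrays equal values (6.25% to 8.97% of features in any pair), and array number limits the precision. Features were named with the platform annotation, and the 14432 with 1 symbol gave 14232 genes (brightest feature by mean over the 5 arrays). A gene was counted where its highest value in a comparison exceeded the median of named features on that array. Differences were taken from the control array of the same line and counted at 1.5-fold, between lines at 2-fold. Knockdown was fitted with limma 3.58.1 under R 4.3.3 (trended eBayes, Benjamini-Hochberg adjustment). The 2 hairpins were entered as replicates against 1 control array. The p-values thus measure only the spread between 2 different hairpins. That spread may be technical, and a difference between the constructs cannot be told apart from it. The fit was tested on simulated data. The spread between the hairpins was taken in 20 bins of level. Promoters came from RefSeq, GRCh38.p14. Genes named are the members, NEDD9, STK11, the 3 genes nearest in pattern to each leading member, up to 4 of each list per comparison and 3 measured genes on each side of each cluster. ELANE, PRTN3, CTSB and the cell type markers were named for their roles, after their values were seen. Members and lists were chosen with earlier results of these data known. Alternatives were other scalings, level filters, folds, the mean of a gene's features and leaving out each hairpin.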

Additional observations from a re-analysis of the deposited data

Results flagged for a closer look

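A feature annotated with both SERPINB3 and SERPINB4 lay outside the comparisons of single-symbol genes and was higher by 1.51 on the log2 scale on the CRL-5907 overexpression array than on the control array (7.07 against 5.56). It is drawn attention to because a signal above the control level appeared in data that the member counts did not use. A second feature with the same 2 symbols was higher by 0.07 there. With 1 array in each condition the difference has no replicate check.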

How the results depend on the processing

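SERPINB11 was the 1 member higher with both hairpins after centring of the arrays (mean difference 1.35), after a further quantile normalization (1.34), without a level filter and at 2-fold. With the level filter at the 75th percentile the count was 0, since that filter removed it. Leaving out a hairpin gave 1 to 2 members higher, SERPINB8 joining with hairpin 1 alone. SERPINB9 was the 1 member higher with overexpression under every alternative except 2-fold, where the count was 0. Between the lines no member was counted, but SERPINB8 was counted as lower in A549 (1 member) after centring (difference -1.02) and after quantile normalization (-1.02). Without a level filter 1 was higher (SERPINB7) and 1 lower (SERPINB5), and at 1.5-fold 1 was higher (SERPINB9) and 1 lower (SERPINB8). Of 54 differences of members recomputed under both scalings 4 moved by more than their spread and 0 changed the sign of a counted one. No paired analysis was possible because the hairpins share 1 control array. Left-out hairpins leave limma no residual degrees of freedom. The control arrays have no replicate, and 5 of 9 members lay at levels not shown to exceed background.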
